A study of Mus musculus with 7899 samples.

Results

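Beta cells of Acss2 wild-type mice in mid-gestation (G14.5, the day of gestation in the name) were set against beta cells of Acss2 wild-type mice at gestation day 0 (G0). All cells whose column name carried the G14.5_Acss2WT or the G0_Acss2WT label were taken, 301 of 7897 single sorted cells of the series. G14.5_Acss2WT held 65 cells in replicate 1 and 46 in replicate 2, and G0_Acss2WT held 90 in replicate 1 and 100 in replicate 2. The mice were female C57BL/6J on a standard diet, and the labels name each replicate as biological without saying how many animals it holds. The same table holds Acss2 knockouts at both times (G14.5_Acss2KO and G0_Acss2KO, 284 cells in 4 libraries) and both genotypes at G18.5. ACSS2 is the enzyme of cytosol and nucleus that joins acetate to coenzyme A. The sources used here do not give the age of the mice, how the knockout was made and in which cells, whether the wild types are its littermates, or what the cells were sorted on. Islets were picked by hand after collagenase digestion, dissociated with trypsin and sorted into plates, and single-cell libraries were made with the plate protocol Smart-seq3xpress.

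Each replicate's cells were added up into 1 summed library, and levels are given as CPM (counts per 1e6 reads) after scaling by the trimmed mean of M values (TMM). The G14.5 libraries held 89790020 and 42700922 reads, and the G0 libraries held 67000955 and 73613613. Depth per cell differed between the times. The median cell had 598157 and 392364 reads outside the insulin genes in the G14.5 libraries, against 294794 and 266978 in the G0 libraries, and the median number of genes with a read was 7521 and 8164 at G14.5, against 7203 and 7152 at G0. Ins1 and Ins2 took 56.2% and 55.5% of all reads at G14.5, against 60% and 62.3% at G0, and every one of the 301 cells had insulin reads. Replicates correlated at r = 0.919 (G14.5) and 0.955 (G0) over the log2 CPM of all tested genes, which are not independent replicates. In summed libraries, a change in the share of cells that use a gene and a change in RNA per cell cannot be told apart, so reads per cell are given beside the main genes.

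Pregnancy enlarges the beta-cell mass and raises insulin output in rodents. Placental lactogen and prolactin act on the prolactin receptor, which signals through the kinase JAK2 and the transcription factor STAT5, and genes of the CIS and SOCS family are classical targets that feed back on the receptor. Serotonin, made from tryptophan by a hydroxylase step, is known as a local signal of the pregnant mouse islet, and the unfolded protein response adjusts the capacity of the endoplasmic reticulum to the secretory load.

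Of 14057 genes tested, 410 (2.92%) differed between G14.5 and G0 at an adjusted p under 0.05 in edgeR's quasi-likelihood test, 283 (2.01%) higher and the rest (0.903%) lower at G14.5. A gene past this threshold is said below to have risen or fallen. Counts in gene lists are to be read beside these shares, at which a short list without a call is not set apart. Of the 410, 198 were at least 2-fold higher and 80 at least 2-fold lower. In all 410 the libraries of the groups did not overlap, so a lack of overlap adds nothing to a call. The median log2 fold change was 1.38 over the genes that rose, -1.13 over those that fell and 0.00 over all genes tested. The p-values measure only the spread between replicate libraries, 2 a group. That spread was estimated over all 12 libraries of the Acss2 table, knockouts and G18.5 among them. A fit of the 4 wild-type libraries alone called 259 genes. Single wild-type libraries were left out of the 12-library fit. Left out in turn, G0 replicate 1 had the largest effect: without it 177 genes passed, 170 of them among the 410.

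**Figure D1:**
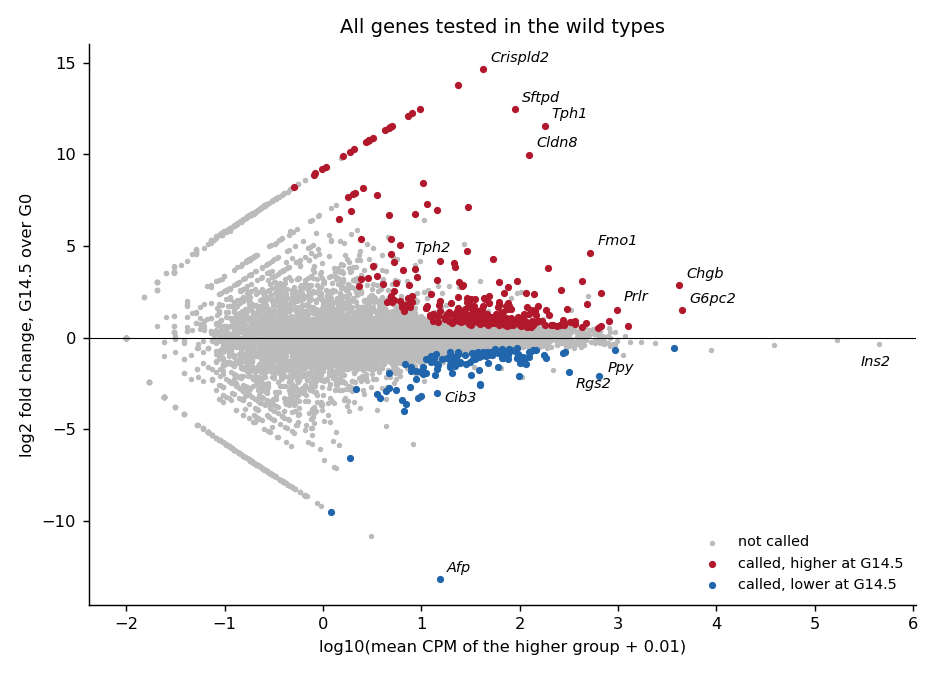
Log2 fold change of each of 14057 genes, G14.5 over G0 in Acss2 wild types, against the log10 mean CPM of the group with the higher level (log scale). Genes called at an adjusted p under 0.05 are red (283 higher at G14.5) or blue (lower), and all others are grey.

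Both tryptophan hydroxylase genes, the rate-limiting enzymes of serotonin synthesis, rose from near 0. Tph1, the enzyme known from non-neuronal tissues (ENSMUSG00000040046, chr7:46644641-46672537, minus strand, GRCm38), had 201 and 157.4 CPM in the G14.5 libraries, against 0 and 0.115 CPM in the G0 libraries. The 8 Tph1 reads at G0 came from 1 of 190 cells. Its fitted log2 fold change was 11.57 ± 0.68 (SE, adjusted p = 1.62e-07, edgeR). Tph2, the paralogue known from brain neurons (chr10:115078641-115185022, minus strand), had 23.2 and 19.4 CPM at G14.5, against 1.18 and 1.35 CPM at G0. Its log2 fold change was 4.07 ± 0.35 (adjusted p = 4.94e-06, edgeR). These were 2 of the 12 tested members of a list of serotonin synthesis, storage, breakdown and receptor genes, and the list's median log2 fold change was 0.12. Ddc, which turns 5-hydroxytryptophan into serotonin, had 410 and 457 CPM at G14.5, against 299 and 350 CPM at G0 (log2 fold change 0.42, adjusted p = 0.153, edgeR). Slc18a1, a vesicular monoamine transporter, had 21.7 and 25.1 CPM at G14.5, against 13.9 and 10.6 CPM at G0, with an adjusted p of 0.0933. The serotonin reuptake transporter gene Slc6a4 and the ion channel receptor gene Htr3a had no read in the 4 libraries.

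Nearly every G14.5 cell carried Tph1 reads. With each cell thinned to 100000 reads outside the insulin genes, 60 of 65 cells (92.3%, exact 95% interval 82.95 to 97.5%) and 43 of 45 cells (95.6%, 84.9 to 99.5%) had a Tph1 read in the G14.5 libraries. In the G0 libraries 0 of 89 cells (a count of 0 allows up to 3.37%) and 1 of 100 cells (1%, 0.0253 to 5.45%) had one. Without thinning, all 65 and all 46 G14.5 cells had a Tph1 read, against 0 of 90 and 1 of 100 G0 cells. Cells differed in their amount. The median thinned cell had 30 and 26 Tph1 reads at G14.5, the highest had 280 and 203, and the top 10% of cells held 45.4% and 37.7% of all Tph1 reads. Tph2 was found in fewer cells, 40 of 65 (61.5%) and 29 of 45 (64.4%) at G14.5, against 5 of 89 (5.62%) and 12 of 100 (12%) at G0. Intervals and limits cover counting error only. The acinar protease gene Prss2 had a read in 2 of 65 and 0 of 45 G14.5 cells and in 0 of 89 and 0 of 100 G0 cells at the same depth. No cell held over 1 Prss2 read, so Prss2 cannot measure reads passed on from cells high in Tph1. Such a share of the Tph1 reads was not tested.

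**Figure D2:**
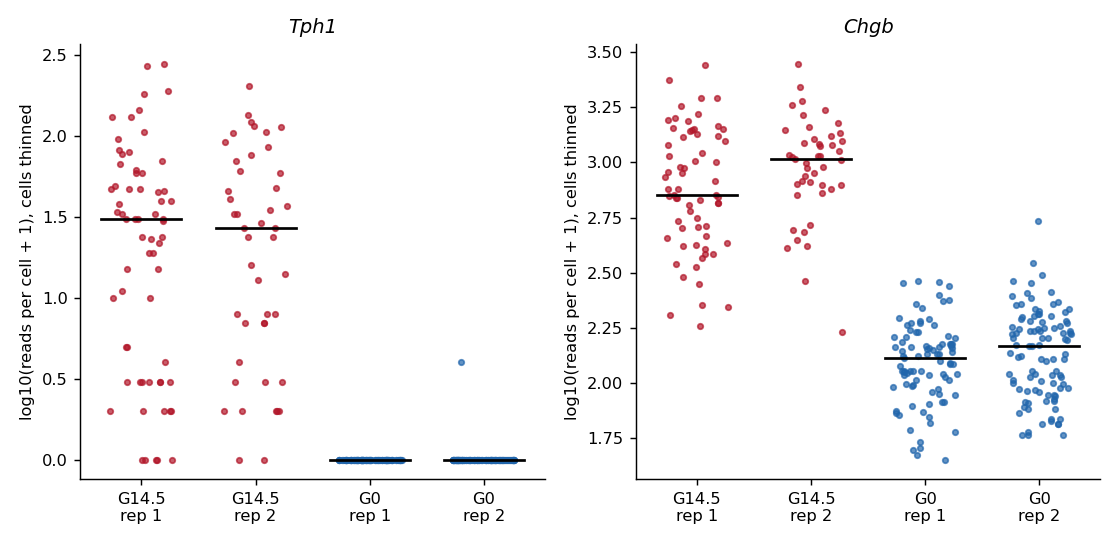
Reads per cell of Tph1 (left) and Chgb (right) as log10(reads + 1), each cell thinned to 100000 reads outside the insulin genes, in the 2 G14.5 libraries and then the 2 G0 libraries of Acss2 wild types. Points are cells and black lines are medians; the median Tph1 cell holds 30 and 26 reads at G14.5 and 0 in both G0 libraries.

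The promoter of Tph2, 250 bases before to 50 after the start site in RefSeq (GRCm38.p6), is shown because it holds a motif that is also present in the promoters of Chac1 and Tars, shown further on. The Asns promoter, which is not printed, holds this motif too. Capitals mark a match to the core of the amino acid response element, the site at which ATF4 and its partners are known to bind (TGATGNAA, searched on both strands), 53 bases before the start site at chr10:115184973-115185272, minus strand.
Tph2: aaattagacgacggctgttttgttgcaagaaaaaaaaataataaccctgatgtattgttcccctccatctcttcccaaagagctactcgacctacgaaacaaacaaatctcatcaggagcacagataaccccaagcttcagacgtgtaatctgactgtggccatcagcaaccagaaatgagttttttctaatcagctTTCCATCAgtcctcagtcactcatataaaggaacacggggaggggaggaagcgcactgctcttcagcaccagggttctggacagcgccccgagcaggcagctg
This core is present in 3.97% of 32851 promoters of the same length, so a match is a description and not a site in use.

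Prlr and the feedback genes Cish and Socs2 rose, while the other listed members of the pathway did not pass the test. Prlr, the prolactin receptor (chr15:10177238-10349180, plus strand), had 941 and 1001 CPM at G14.5, against 264 and 427 CPM at G0, a log2 fold change of 1.49 ± 0.18 (adjusted p = 0.000144, edgeR). Cish, an inhibitor of cytokine receptors that STAT5 induces (chr9:107296026-107302784, plus strand), had 285 and 247 CPM at G14.5, against 31.7 and 57.2 CPM at G0. Its log2 fold change was 2.58 ± 0.27 (adjusted p = 2.15e-05, edgeR). Socs2, a further feedback inhibitor of the same family (chr10:95385362-95417180, minus strand), had 119.4 and 190.4 CPM at G14.5, against 42.4 and 50.8 CPM at G0 (log2 fold change 1.73 ± 0.20, adjusted p = 5.72e-05, edgeR). These were 3 of 20 members of the list of prolactin receptor, JAK and STAT genes, and none fell. Of the 20, 7 had a positive log2 fold change, and the list's median was -0.11. The change was spread over the cells. At equal depth the median cell had 66 and 60 Cish reads at G14.5, against 7 and 11.5 at G0, and the mean of Prlr reads was 242 and 251.8 at G14.5, against 67.98 and 110.7 at G0. All 65 and all 45 thinned G14.5 cells had Cish reads, against 79 of 89 and 94 of 100 G0 cells.

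**Figure D3:**
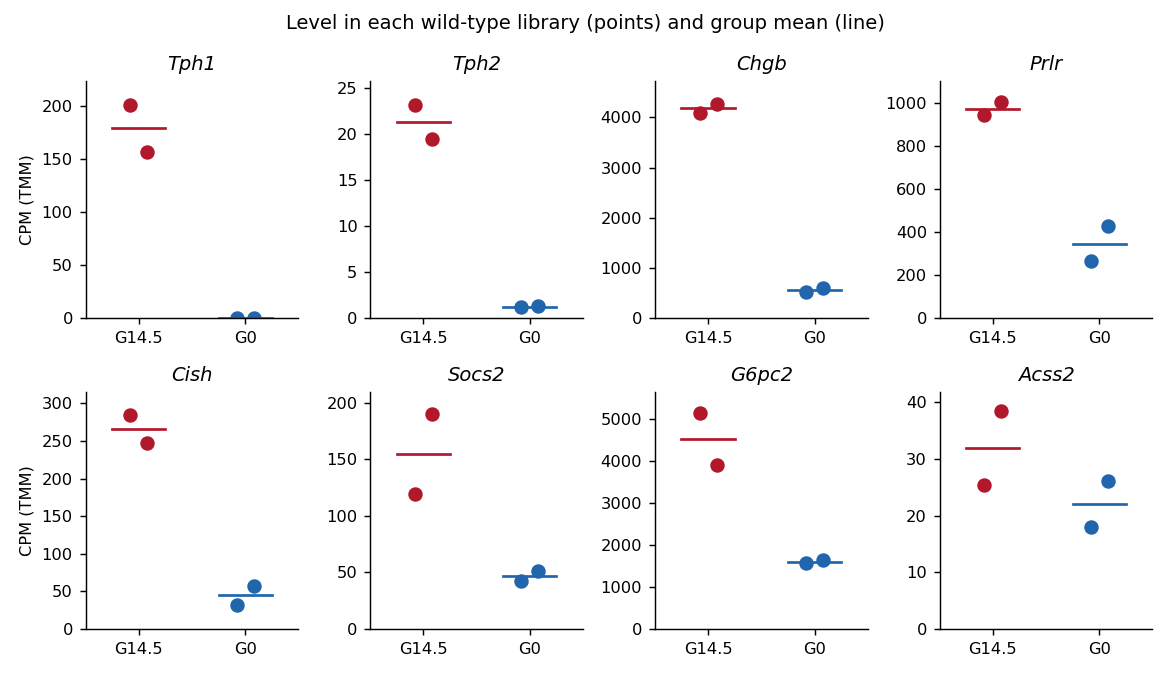
Level in CPM of 8 genes in each of the 2 G14.5 libraries (red, left) and the 2 G0 libraries (blue, right) of Acss2 wild types; points are libraries and lines group means, with each axis starting at 0. For Tph1, Tph2, Chgb, Prlr, Cish, Socs2 and G6pc2 both G14.5 points lie above both G0 points, and for Acss2 the groups overlap.

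The promoters of Cish (chr9:107296409-107296708, plus strand) and Prlr (chr15:10223656-10223955, plus strand, 1 of 3 start sites listed) are shown because both hold the gamma-activated site to which STAT dimers are known to bind, TTCNNNGAA. Capitals mark the matches. Cish has 2 of them, which begin at bases 1 and 12 counted from the start site, and Prlr has 1, which begins 110 bases before it.
Cish: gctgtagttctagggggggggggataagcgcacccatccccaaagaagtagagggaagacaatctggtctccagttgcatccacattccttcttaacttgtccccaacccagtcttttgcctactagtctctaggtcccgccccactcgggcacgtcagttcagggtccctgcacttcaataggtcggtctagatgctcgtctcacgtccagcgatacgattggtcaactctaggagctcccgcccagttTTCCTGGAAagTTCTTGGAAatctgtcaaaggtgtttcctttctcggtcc
Prlr: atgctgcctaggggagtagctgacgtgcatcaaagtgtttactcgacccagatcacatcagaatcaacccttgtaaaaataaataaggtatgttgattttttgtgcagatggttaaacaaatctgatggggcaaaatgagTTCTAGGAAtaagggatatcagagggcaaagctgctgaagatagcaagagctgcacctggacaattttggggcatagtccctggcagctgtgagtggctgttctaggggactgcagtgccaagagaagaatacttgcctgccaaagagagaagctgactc
A match of this kind is present in 8.30% of all 32851 promoters. Among 27025 genes with a listed promoter, 9.55% hold it, and of the 196 genes that rose and have one, 28 do (14.3%).

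The largest changes were in genes with little or no RNA at G0. Counting all genes that rose, 22 had no read in either G0 library. Crispld2, a secreted cysteine-rich protein gene (chr8:119992438-120052793, plus strand), had 47.2 and 37.4 CPM at G14.5, against 0 and 0 CPM at G0. Taking 3 reads over the G0 group as a floor, it was at least 2047-fold higher (adjusted p = 3.05e-07, edgeR). Lrrc55, an auxiliary subunit of BK potassium channels, had 25.8 and 21.3 CPM at G14.5, against 0 and 0 CPM at G0, at least 1133-fold higher on the same floor. Sftpd, the gene of surfactant protein D, a collectin known from the lung (chr14:41172214-41185149, minus strand), had 99.3 and 79.8 CPM at G14.5, against 0 and 0.0287 CPM at G0. The G0 value stands for 2 reads, which gives a ratio of 6483 with a 95% counting interval of 1794 to 53541 (adjusted p = 1.1e-10, edgeR). Sftpd reads were in 50 of 65 and 36 of 45 G14.5 cells at equal depth, against 0 of 89 and 1 of 100 G0 cells. Cldn8, a tight junction claudin, had 87.4 and 164 CPM at G14.5, against 0 and 0.244 CPM at G0 (log2 fold change 9.99 ± 0.65). Its reads were unevenly spread: the top 10% of cells held 61.1% and 47.7% of them in the G14.5 libraries.

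The other genes of high fold change carry varied functions. A lack of overlap between the groups was part of the rule that named them, so it is not a finding about them. Membrane proteins are among them. Ngfr, the p75 neurotrophin receptor, had 6.43 and 16.3 CPM at G14.5, against 0 and 0.144 CPM at G0, and Lrrc8c, a subunit of the volume-regulated anion channel, had 29.9 and 30.3 CPM at G14.5, against 0.128 and 0.302 CPM at G0. Fmo1, a flavin-containing monooxygenase, had 362 and 675 CPM at G14.5, against 7.26 and 34.2 CPM at G0 (log2 fold change 4.64 ± 0.56). Neb, the muscle thin-filament protein nebulin, had 24.4 and 33.7 CPM at G14.5, against 0.628 and 1.57 CPM at G0 (4.72 ± 0.34 on the log2 scale). Tnfrsf11b, osteoprotegerin, the decoy receptor of RANKL, had 51.4 and 56.1 CPM at G14.5, against 1.11 and 4.41 CPM at G0 (log2 fold change 4.28 ± 0.44), and Oxtr, the oxytocin receptor, had 23.01 and 21.1 CPM at G14.5, against 1.54 and 1.45 CPM at G0 (log2 fold change 3.88 ± 0.50). Sntg2, a syntrophin, rose with a wide gap between replicates, 24.9 and 3.63 CPM at G14.5, against 0.228 and 0 CPM at G0. Fbxw24 (13.9 and 6.85 CPM at G14.5, against 0 and 0.0575 CPM at G0) and Gbp8 (14.1 and 16.7 CPM at G14.5, against 1.01 and 0.661 CPM at G0) belong to families of near-identical copies, and the sources used here do not say how reads shared between copies were counted. A list of 20 islet genes known to rise in mouse pregnancy held 18 that rose and none that fell, with a median log2 fold change of 4.10. That list was drawn up knowing results of these libraries, so its count is not independent evidence.

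Among granule proteins, Chgb stood apart. Chgb, the granin chromogranin B of the insulin granule core (ENSMUSG00000027350, chr2:132781278-132795079, plus strand), had 4095 and 4268 CPM at G14.5, against 522 and 608 CPM at G0. The log2 fold change was 2.89 ± 0.14 (adjusted p = 5.21e-09, edgeR), with both G14.5 libraries far above both G0 libraries. All cells of the 4 libraries had Chgb reads, and the mean cell at equal depth had 908 and 1065 at G14.5, against 133.4 and 150.02 at G0. The prohormone convertase gene Pcsk1 rose too, with 361 and 375 CPM at G14.5, against 161 and 223 CPM at G0 (log2 fold change 0.93 ± 0.17, adjusted p = 0.00466, edgeR). Other granule genes moved the opposite way. Scg2, secretogranin II, had 2545 and 2487 CPM at G14.5, against 3624 and 3764 CPM at G0 (log2 fold change -0.55, adjusted p = 0.0247, edgeR). The Scg2 call was not checked with libraries left out or in other fits. Pcsk1n, which encodes the inhibitor proSAAS, had 638 and 535 CPM at G14.5, against 997 and 872 CPM at G0 (-0.67 on the log2 scale), and Nnat, neuronatin, had 28.4 and 18.3 CPM at G14.5, against 122.4 and 74.9 CPM at G0 (-2.08 ± 0.39). Of 16 granin and cargo genes 2 rose and 3 fell, with a median log2 fold change of -0.28. Chga, the chromogranin A gene, had 4759.9 and 6499 CPM at G14.5, against 9608 and 8091 CPM at G0, which did not pass the test (adjusted p = 0.0782, edgeR). Without G0 replicate 1 the calls of Pcsk1 (adjusted p = 0.11), Pcsk1n (0.286) and Nnat (0.0612) were lost, and that of Pcsk1n also without G14.5 replicate 2 (0.216) or G0 replicate 2 (0.0517) and in a fit of the 4 wild-type libraries alone (0.0694).

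Insulin genes and most beta-cell identity genes did not pass the test. Ins1 had 160993 and 151699 CPM at G14.5, against 151262 and 184636 CPM at G0 (log2 fold change -0.10 ± 0.16, adjusted p = 0.831, edgeR), and the groups overlapped. Ins2 had 359984 and 340266 CPM at G14.5, against 422443 and 473921 CPM at G0 (-0.36 ± 0.17, adjusted p = 0.332). Ucn3, the urocortin 3 of mature beta cells, had 669 and 645 CPM at G14.5, against 603 and 640.1 CPM at G0, and the transcription factor gene Mafa was low throughout, at 1.96 and 0.914 CPM at G14.5, against 1.73 and 1.08 CPM at G0. Of 20 identity genes, G6pc2 rose and Foxo1 fell, and the median log2 fold change was 0.05. G6pc2, the glucose-6-phosphatase catalytic subunit of islets, had 5142 and 3891 CPM at G14.5, against 1569 and 1632 CPM at G0 (log2 fold change 1.497 ± 0.15, adjusted p = 2.15e-05, edgeR). Foxo1, a transcription factor that insulin signalling holds out of the nucleus, had 34.1 and 35.3 CPM at G14.5, against 65.2 and 68.7 CPM at G0 (-0.95 ± 0.16). Of 19 exocytosis and excitability genes only Syt7, a calcium sensor of granule fusion, passed the test. It had 95.2 and 93.2 CPM at G14.5, against 140.96 and 155.8 CPM at G0 (log2 fold change -0.66, adjusted p = 0.0207, edgeR), and the call was lost without any single one of the 4 libraries (adjusted p 0.078 to 0.16) and in a fit of those 4 alone (0.0563). None of 17 hormone, nutrient and autonomic receptor genes passed.

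Genes of the early secretory pathway lay mostly above 0, with few calls. Over all genes tested the median log2 fold change was 0.00, and 2.01% rose. In the list of protein entry into the endoplasmic reticulum all 22 members had a positive log2 fold change, with a median of 0.39, and 2 rose. Both are subunits of the signal peptidase: Spcs1 had 350.5 and 294 CPM at G14.5, against 155.2 and 196 CPM at G0 (0.87 ± 0.16 on the log2 scale), and Sec11c had 225 and 207 CPM at G14.5, against 117.4 and 151.6 CPM at G0 (0.68 ± 0.16). Of 22 folding and unfolded protein response genes 5 rose and none fell, with a median of 0.40. Ern1, the stress sensor IRE1 alpha, had 141.4 and 147.7 CPM at G14.5, against 48.98 and 50.8 CPM at G0 (log2 fold change 1.54 ± 0.16, adjusted p = 2.29e-05, edgeR). Xbp1, the transcription factor whose RNA IRE1 splices, had 333 and 358 CPM at G14.5, against 172 and 207 CPM at G0 (0.87 ± 0.16 on the log2 scale, adjusted p = 0.00619). Derl3, which helps move misfolded proteins out of the endoplasmic reticulum, rose most among these 5, with 43.03 and 43.3 CPM at G14.5, against 5.67 and 13.3 CPM at G0 (2.19 ± 0.38). Edem1, a mannosidase-like degradation factor, and Calr, the chaperone calreticulin, were the others, at log2 fold changes of 1.05 and 0.61. The Calr call was not checked with libraries left out or in other fits. Of 21 vesicle coat and cargo receptor genes none passed, although 20 had a positive log2 fold change, with a median of 0.35. The calls of Spcs1 (adjusted p = 0.11), Sec11c (0.354), Xbp1 (0.12) and Edem1 (0.112) were lost without G0 replicate 1, and that of Sec11c also without G14.5 replicate 1 (0.118) or 2 (0.0547), on cells thinned to 100000 reads (0.0527) and in a fit of the 4 wild-type libraries alone (0.0868).

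The Derl3 promoter (chr10:75893148-75893447, plus strand) is shown because it holds the only endoplasmic reticulum stress element among the promoters of 42 named genes that rose or fell and have one in RefSeq. The element, CCAAT and CCACG with 9 bases between them, is known to be bound by NF-Y together with ATF6 or XBP1. Capitals mark the match, on the minus strand and beginning at base 95 of the 300 shown.
Derl3: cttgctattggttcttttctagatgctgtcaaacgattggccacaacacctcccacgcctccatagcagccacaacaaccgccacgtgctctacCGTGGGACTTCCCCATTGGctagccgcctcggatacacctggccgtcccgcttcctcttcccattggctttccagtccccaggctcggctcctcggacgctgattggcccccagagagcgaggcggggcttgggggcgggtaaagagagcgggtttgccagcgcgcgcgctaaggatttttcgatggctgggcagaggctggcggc
The element is present in 0.119% of the 32851 promoters, and in those of 2 of the 196 genes that rose and have one.

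**Figure D4:**
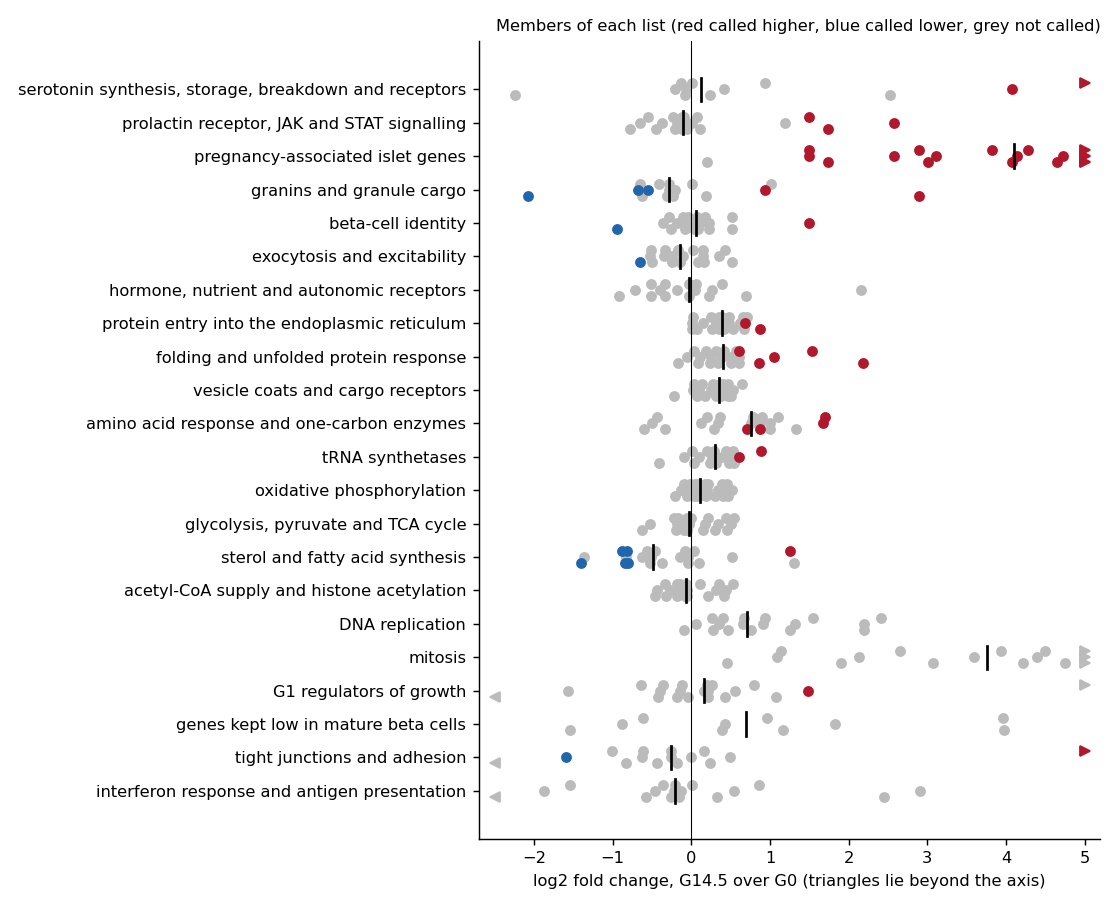
Log2 fold change (G14.5 over G0, Acss2 wild types) of each tested member of 22 gene lists, red where called higher, blue where called lower and grey where not called; black lines are list medians and triangles lie beyond the axis. Members of the 3 lists of the secretory pathway lie mostly right of 0 with 7 called, and sterol and fatty acid genes lie mostly left of 0.

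Genes of the amino acid response, which the factor ATF4 is known to drive, gave 4 rises and no fall among 21 members of the amino acid response and one-carbon list, with a median log2 fold change of 0.76. Chac1, which breaks down glutathione, had 89.4 and 67.1 CPM at G14.5, against 25.2 and 23.9 CPM at G0 (log2 fold change 1.67 ± 0.21, adjusted p = 0.000191, edgeR). Phgdh, the entry enzyme of serine synthesis, had 35.005 and 30.7 CPM at G14.5, against 7.91 and 12.3 CPM at G0 (1.70 ± 0.30 on the log2 scale). Asparagine synthetase (Asns) and the mitochondrial folate enzyme Mthfd2 rose less. Asns had 127.7 and 104.4 CPM at G14.5, against 66.6 and 60.01 CPM at G0, and Mthfd2 had 82.7 and 75.3 CPM at G14.5, against 49.9 and 46.6 CPM at G0. Of 18 tRNA synthetase genes 2 rose and 16 had a positive log2 fold change, with a median of 0.30 (0.00 over all genes tested). Tars, which charges threonine tRNA, had 56.9 and 48.9 CPM at G14.5, against 28.03 and 29.3 CPM at G0 (0.88 on the log2 scale, adjusted p = 0.0119), and Nars, which charges asparagine tRNA, had 135.5 and 124.95 CPM at G14.5, against 91.3 and 79.7 CPM at G0 (0.61, adjusted p = 0.0313). The calls of Mthfd2 (adjusted p 0.0593 to 0.18) and Nars (0.0742 to 0.255) were lost without any single one of the 4 libraries, and in a fit of those 4 alone (0.0534 for Mthfd2 and 0.0952 for Nars). That of Tars was lost without G14.5 replicate 1 (0.0799), G0 replicate 1 (0.13) or G0 replicate 2 (0.0644), that of Phgdh without G0 replicate 1 (0.0662) and that of Asns without G0 replicate 2 (0.0517).

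The Chac1 (chr2:119350992-119351291, plus strand) and Tars (chr15:11399609-11399908, minus strand) promoters hold the same core as the Tph2 promoter shown above, again in capitals, 193 and 15 bases before the start site. The Asns promoter holds this core as well and is not printed.
Chac1: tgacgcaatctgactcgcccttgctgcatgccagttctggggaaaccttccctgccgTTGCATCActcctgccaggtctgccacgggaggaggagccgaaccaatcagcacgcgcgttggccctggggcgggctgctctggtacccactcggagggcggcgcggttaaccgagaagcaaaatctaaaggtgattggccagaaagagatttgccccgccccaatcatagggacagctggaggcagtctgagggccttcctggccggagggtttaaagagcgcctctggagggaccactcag
Tars: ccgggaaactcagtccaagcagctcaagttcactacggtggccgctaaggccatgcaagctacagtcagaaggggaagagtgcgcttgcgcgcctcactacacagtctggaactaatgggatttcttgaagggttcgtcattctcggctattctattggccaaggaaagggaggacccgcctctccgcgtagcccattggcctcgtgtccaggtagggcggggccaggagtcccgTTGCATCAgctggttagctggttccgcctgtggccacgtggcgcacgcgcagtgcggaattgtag
Of the 196 genes that rose and have a promoter in the table, 17 (8.67%) hold this core, beside 4.51% of all 27025 genes.

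The lists of energy metabolism held no call. With 2.92% of all tested genes called, that does not set lists of this size apart. None of 26 oxidative phosphorylation genes passed, with a median log2 fold change of 0.11, and none of 21 glycolysis, pyruvate and TCA cycle genes, with a median of -0.03. None of 21 genes of acetyl-CoA supply and histone acetylation passed either, with a median of -0.07. Acss2 itself (chr2:155517948-155585724, plus strand) had 25.5 and 38.5 CPM at G14.5, against 17.996 and 26.1 CPM at G0. Its groups overlapped, and the log2 fold change was 0.54 ± 0.24 (adjusted p = 0.30, edgeR).

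Sterol and fatty acid synthesis was the list with most falls, 5 of 22 members beside 1 rise, with a median log2 fold change of -0.49. Srebf2, the master regulator of cholesterol synthesis, had 38.8 and 32.5 CPM at G14.5, against 60.6 and 64.5 CPM at G0 (-0.81 on the log2 scale, adjusted p = 0.0174). The Srebf2 call was not checked with libraries left out or in other fits. Mlxipl, the glucose-sensing factor ChREBP, fell by 0.84 on the log2 scale, and the desaturase gene Scd2 fell by 1.40. Dhcr7, the reductase of the last step to cholesterol, moved the opposite way, with 33.9 and 27.8 CPM at G14.5, against 13.2 and 12.51 CPM at G0 (log2 fold change 1.26 ± 0.22, adjusted p = 0.0037, edgeR). The call of Mlxipl was lost without G0 replicate 1 (adjusted p = 0.0699), and that of Scd2 without G14.5 replicate 2 (0.0757) or G0 replicate 2 (0.1).

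Proliferation genes were carried by 1 of the G14.5 libraries and none passed the test. Mki67, which marks cycling cells, had 1.45 and 8.72 CPM at G14.5, against 0.186 and 0.259 CPM at G0 (log2 fold change 4.49 ± 1.46, adjusted p = 0.128, edgeR). All 16 mitosis genes had a positive log2 fold change, with a median of 3.76 (0.00 over all genes tested), but replicate 2 held most of the reads. Their summed level was 9.22 and 58.2 CPM in the G14.5 libraries, against 4.25 and 5.67 CPM in the G0 libraries. At equal depth Mki67 reads were in 3 of 65 cells (4.62%) and 9 of 45 cells (20%) at G14.5, against 4 of 89 cells (4.49%) and 3 of 100 cells (3%) at G0. A single cell held 75% and 48.1% of the Mki67 reads of the 2 G14.5 libraries. None of 18 DNA replication genes passed, with a median of 0.71. Of 21 regulators of G1 growth only Myc rose, with 24.7 and 21.3 CPM at G14.5, against 7.09 and 9.38 CPM at G0 (log2 fold change 1.48 ± 0.37, adjusted p = 0.0388, edgeR). The Myc call was lost without any single one of the 4 libraries (adjusted p 0.0541 to 0.311). Men1, whose product menin restrains islet growth, and Foxm1, a factor that drives cell division, did not pass: Men1 had 17.9 and 19.3 CPM at G14.5, against 15.8 and 16.53 CPM at G0, and Foxm1 had 0 and 5.54 CPM at G14.5, against 0.0285 and 0.129 CPM at G0.

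Among the genes that fell, Afp had the lowest fold change. Afp, the gene of the fetal liver protein alpha-fetoprotein (chr5:90490737-90508907, plus strand), had 0 and 0 CPM at G14.5, against 13.1 and 17.8 CPM at G0, at least 748-fold lower with 3 reads over the G14.5 group as a floor (adjusted p = 3.99e-06, edgeR). Its reads were spread thinly over the G0 cells. Without thinning, 72 of 90 and 81 of 100 G0 cells had an Afp read and no cell held over 5.86% of them, against 0 of 65 and 0 of 46 of the deeper G14.5 cells. In the knockouts of the same table the pattern was alike, with 0 and 0 CPM at G14.5, against 12.1 and 17.03 CPM at G0. The G0 libraries of the time course, a separate set of wild-type libraries, held 0.117 and 0.304 CPM.

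The other genes of lowest fold change included regulators of signalling and membrane proteins. Rgs2, which switches off G proteins of the Gq class, had 62.3 and 110.5 CPM at G14.5, against 348 and 282 CPM at G0 (log2 fold change -1.87 ± 0.28, adjusted p = 0.000752, edgeR). Pip5k1c, which makes the lipid PIP2, had 9.01 and 6.42 CPM at G14.5, against 33.5 and 29.8 CPM at G0 (-2.03 ± 0.26), and Fxyd3, a regulator of the sodium pump, had 2.35 and 1.12 CPM at G14.5, against 10.8 and 18.2 CPM at G0 (-3.04 ± 0.48). Arl4d, a small GTPase, and Cib3, a calcium-binding protein, fell by 3.17 and 2.51 on the log2 scale, and 8430408G22Rik fell by 2.60. The nuclear factor gene Tox had 5.49 and 5.27 CPM at G14.5, against 21.02 and 19.8 CPM at G0 (-1.92 ± 0.28). Shisa2 and S100a4, a calcium-binding protein, fell by 2.05 and 1.78, and the sialyltransferase gene St3gal1 and the thymosin gene Tmsb15b2, which has close copies, fell by 1.88 and 1.93. Of 15 tight junction and adhesion genes Cldn8 rose and Cldn4, a claudin of epithelial barriers, fell, with 19.2 and 20.5 CPM at G14.5, against 72.2 and 47.9 CPM at G0 (-1.60 ± 0.25). The scavenger receptor gene Lyve1, known from lymphatic endothelium, had 3.32 and 2.06 CPM at G14.5, against 14.3 and 6.72 CPM at G0 (-1.96 ± 0.42, adjusted p = 0.0158, edgeR). The 7 endothelial markers summed to 0.465 and 0.498 CPM at G14.5, against 4.196 and 1.11 CPM at G0, and none of the 6 tested passed; their part in the Lyve1 result was not tested. Leaving out single libraries ended some of these calls: those of S100a4 (adjusted p 0.0721 to 0.0968) and St3gal1 (0.0618 to 0.0927) without any of the 4, that of 8430408G22Rik without G14.5 replicate 1 (0.0803) or G0 replicate 1 (0.0951), that of Shisa2 without G0 replicate 2 (0.0595), and that of Lyve1 without G14.5 replicate 2 (0.106) or G0 replicate 1 (0.349). The Lyve1 call was also lost in a fit of the 4 wild-type libraries alone (0.0898) and with limma (0.0804), and that of St3gal1 on thinned cells (0.0584) and with limma (0.174).

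Markers of acinar, endothelial, stromal and red blood cells were near 0, while some hormone and complement genes were not. Ppy, pancreatic polypeptide, had 129.1 and 170.3 CPM at G14.5, against 374 and 899.9 CPM at G0 (log2 fold change -2.09 ± 0.51, adjusted p = 0.0359, edgeR). One cell held 47.4% and another 46.3% of the Ppy reads in the G0 libraries. Without the 4 cells in which hormones other than insulin took over 5% of the reads outside insulin (0 and 1 at G14.5, 1 and 2 at G0), the log2 fold change of Ppy was -0.72 and the call was lost (adjusted p = 0.399), as it was without G14.5 replicate 1 (0.131), G14.5 replicate 2 (0.0645) or G0 replicate 2 (0.247), with DESeq2 (0.0621) and with limma (0.0614). Gcg, glucagon of alpha cells, had 845 and 136.4 CPM at G14.5, against 104.3 and 102.5 CPM at G0 (adjusted p = 0.26). Every thinned G14.5 cell had Gcg reads, against 60 of 89 and 64 of 100 G0 cells, and the median cell had 191 and 30 reads at G14.5, against 7 and 1 at G0. The summed level of the 9 alpha-cell markers was 1698 and 715 CPM at G14.5, against 1394 and 1442 CPM at G0. Among them the arginine transporter gene Slc7a2 fell, and the transcription factor gene Irx1 was below 1 CPM in each of the 4 libraries. The Slc7a2 call was lost without any single one of the 4 libraries (adjusted p 0.0507 to 0.191), in a fit of those 4 alone (0.0685) and with limma (0.0577). C1qa, a complement gene of macrophages, had 117.3 and 107.6 CPM at G14.5, against 45.8 and 50.1 CPM at G0 (1.23 ± 0.20, adjusted p = 0.00199). C1qb and C1qc had no read at G14.5, and Ptprc and Cd74 had none in the 4 libraries. C1qa reads were in all 65 and all 46 G14.5 cells without thinning, with 6.01% and 7.24% of them in the highest cell.

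Acinar markers summed to 2.23 and 2.699 CPM at G14.5, against 0.871 and 1.72 CPM at G0, and stromal and red blood cell markers were below 1 CPM in each of the 4 libraries. Delta-cell markers, mostly Sst, summed to 165.8 and 563 CPM at G14.5, against 187.5 and 199.4 CPM at G0, and ductal markers to 188.9 and 160.8 CPM at G14.5, against 203 and 148.1 CPM at G0. No gene of these 5 lists passed the test. Of 19 immediate-early and heat-shock genes, which move with handling stress in dissociated tissue, Jun rose and Dnajb1 fell. Jun had 92.3 and 95.2 CPM at G14.5, against 32.5 and 61.3 CPM at G0, and Dnajb1 had 21.1 and 20.3 CPM at G14.5, against 36.7 and 43.4 CPM at G0. Without G14.5 replicate 2 both calls were lost (adjusted p = 0.0598 for Jun and 0.0618 for Dnajb1), that of Jun also without G0 replicate 1 (0.248) and in a fit of the 4 wild-type libraries alone (0.126), and that of Dnajb1 without G0 replicate 2 (0.0968). Summed over the list the level was 1966 and 1733 CPM at G14.5, against 1700.3 and 1842 CPM at G0. None of 17 interferon and antigen presentation genes passed, and none of 10 genes that mature beta cells keep low.

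The knockouts of the same table gave a measure of how far the wild-type change depended on genotype. Acss2 had 17.9 and 19.03 CPM in knockouts at G14.5, against 11.3 and 9.76 CPM in knockouts at G0. The knockout libraries lay below the wild-type libraries of the same time, but they held reads of Acss2. The sources used here do not say which part of the gene was deleted, so reads outside it cannot be told apart from intact RNA. The change in wild types minus the change in knockouts passed the test for 3 of 14057 genes (0.0213%), all with a larger wild-type value, and 855 genes (6.08%) had an unadjusted p under 0.05. Both changes have controls of their own, and they were fitted together. The count was 28 without wild-type G14.5 replicate 1, 5 without wild-type G14.5 replicate 2, and 1 without wild-type G0 replicate 2 or any single one of the 4 knockout libraries.

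**Figure D5:**
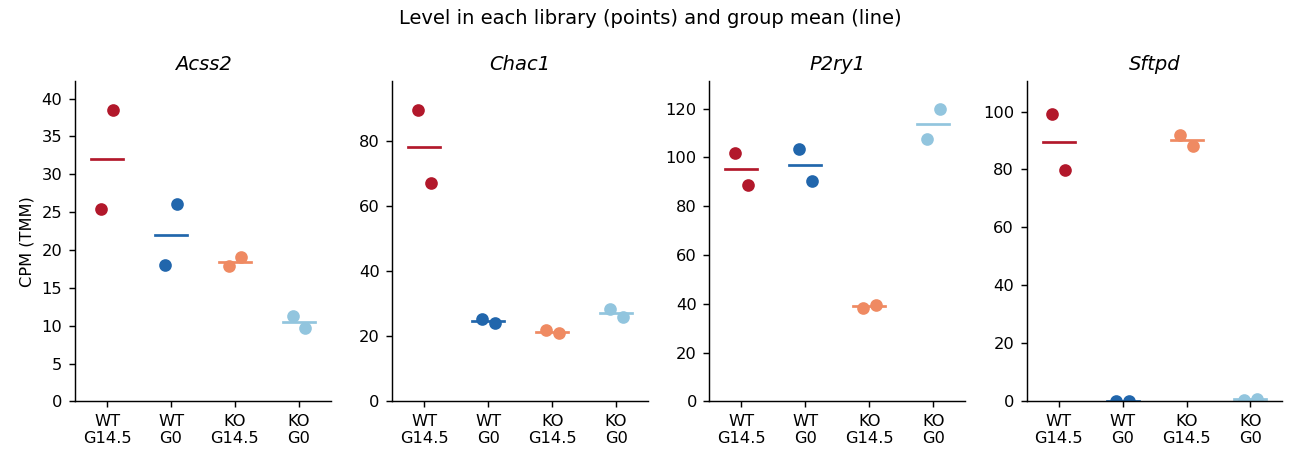
Level in CPM of Acss2, Chac1, P2ry1 and Sftpd in each library of Acss2 wild types (WT) at G14.5 and G0, then of Acss2 knockouts (KO) at G14.5 and G0; points are libraries and lines group means. Chac1 is high in both WT G14.5 libraries (89.4 and 67.1 CPM), and P2ry1 is low in both KO G14.5 libraries (38.4 and 39.6 CPM).

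The 3 genes differed in the way their changes came apart. Chac1 rose in wild types as given above, and had 22.1 and 20.9 CPM in knockouts at G14.5, against 28.5 and 25.8 CPM in knockouts at G0. The log2 change differed by 2.01 ± 0.30 (adjusted p = 0.0254, edgeR). P2ry1, a purinergic receptor gene, had no call in wild types, with 101.7 and 88.7 CPM at G14.5, against 103.3 and 90.5 CPM at G0 (log2 fold change -0.02 ± 0.16). In knockouts it had 38.4 and 39.6 CPM at G14.5, against 107.5 and 119.8 CPM at G0, a difference of 1.52 ± 0.22 (adjusted p = 0.0254). Both calls were lost without any single one of the 4 knockout libraries or the 2 wild-type G0 libraries, where the adjusted p was 0.0564 to 0.178 for Chac1 and 0.0516 to 0.202 for P2ry1. Sftpd had 91.998 and 88.2 CPM in knockouts at G14.5, against 0.542 and 0.852 CPM in knockouts at G0, so its difference of 5.45 ± 0.68 (adjusted p = 0.00833) rests on the G0 libraries, of which the wild-type ones hold 2 reads in all. With limma on the authors' normalized values it was 1.67 (adjusted p = 0.0808).

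For the marker genes the changes did not pass as different. Tph1 had 169 and 122.1 CPM in knockouts at G14.5, against 0 and 0 CPM in knockouts at G0. Tph2 had 20.3 and 18.97 CPM in knockouts at G14.5, against 0.793 and 0.218 CPM in knockouts at G0 (difference -1.24 ± 0.49, adjusted p = 0.776). Chgb had 3925 and 3369 CPM in knockouts at G14.5, against 543 and 606 CPM in knockouts at G0, and its change differed by 0.22 ± 0.18 (adjusted p = 0.893, edgeR). Prlr differed by -0.09 ± 0.26 and Cish by 0.15 ± 0.35 on the log2 scale. Of the 21 amino acid response and one-carbon genes only Chac1 passed, and 20 had a positive difference (lowest -0.70 for Nupr1), with a median of 0.58 on the log2 scale. Of the 18 tRNA synthetase genes none passed and 12 had a positive difference, with a median of 0.20. Over all 14057 genes 50.3% had a positive difference and the median was 0.00. The members that rose in wild types, whose choice favours a positive value, had differences of 0.84 ± 0.21 (Asns), 0.78 ± 0.23 (Mthfd2), 1.04 ± 0.42 (Phgdh), 0.63 ± 0.26 (Tars) and 0.26 ± 0.20 (Nars), none of which passed. A p that misses the threshold does not show that the genotypes acted alike.

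The same times were also sampled in a pregnancy time course that shares no library with the Acss2 set (3 libraries at G14.5 and 2 at G0, 424 cells). In a joint fit of 9 libraries, 744 of 13822 genes (5.38%) passed in the time course, 473 higher (3.42%) and 271 lower (1.96%). Of the 410 genes called in Acss2 wild types, 387 (94.4%) had the same sign in the time course, beside 63.1% of 13644 genes tested in both. Called in both in the same direction were 223 genes, 184 higher and 39 lower, which is 54.4% of the 410 and 29.97% of the 744, and no gene was called in opposite directions. The median time-course log2 fold change was 1.20 over the genes that rose here and -0.55 over those that fell here. Prlr, Cish, Socs2, Chgb, G6pc2, Ern1, Derl3, Pcsk1 and Myc were among those called higher in both, at time-course log2 fold changes of 0.79 (Pcsk1) to 4.26 (Cish).

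The change in Acss2 wild types minus the time-course change passed for 3 of 13822 genes (0.0217%), all larger in the Acss2 set, and 932 genes (6.74%) had an unadjusted p under 0.05. The count was 23 without time-course G14.5 replicate 2, 1 without time-course G14.5 replicate 1, 10 without time-course G0 replicate 1, 5 without time-course G0 replicate 2, and 10 without Acss2 wild-type G14.5 replicate 2. In joint CPM, Tph1 had 81.5, 91.1 and 108.7 in the time course at G14.5, against 0.774 and 0.495 at G0, a log2 fold change of 7.12 ± 0.35. Its difference from the Acss2 wild types was 4.46 ± 0.62 (adjusted p = 0.0174, edgeR). Sftpd had 48.8, 61.5 and 42.2 CPM at G14.5, against 0.511 and 0.609 CPM at G0 (difference 5.93 ± 0.67, adjusted p = 0.00246), and Crispld2 had 17.3, 18.8 and 30.5 CPM at G14.5, against 0.234 and 0.495 CPM at G0 (difference 8.62 ± 1.22, adjusted p = 0.0211). All 3 rest on G0 libraries at or near 0, in which a few reads set the fitted fold change. The Tph1 call was lost without time-course G0 replicate 1 (adjusted p = 0.228) or G14.5 replicate 1 (0.0641). The Crispld2 call was lost without the first (0.0807) or second (0.058) G0 library of the Acss2 set, without time-course G14.5 replicate 1 (0.0641), and with limma on normalized values (0.454).

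Most genes that fell in the Acss2 set had no call in the time course: 88 did not pass there, against the 39 (30.7%) called lower in both. Of the genes that rose, 99 were not called higher in the time course, against the 184 (65.02%) called higher in both. The difference between these shares was not tested. Rgs2, for which the G0 libraries of the Acss2 set held 348 and 282 CPM, had 20.2 and 30.5 joint CPM in the G0 libraries of the time course, where its log2 fold change was -0.36 ± 0.23. Shisa2 (-0.13), Lyve1 (0.11), Scd2 (0.11) and Dnajb1 (0.36) likewise had small or opposite values there that did not pass. Pip5k1c (-1.54 ± 0.22), Tox (-1.94 ± 0.25), Cib3 (-2.62 ± 0.29) and Cldn4 (-1.27 ± 0.20) were called lower in both.

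Tph1 and Chgb were also read in wild types later in gestation and in a further set of libraries. In Acss2 wild types at G18.5, Tph1 had 167.5 and 66.003 CPM, Chgb 3729 and 3914 CPM and Cish 184 and 140.96 CPM. In 2 libraries of standard-diet Acss2 wild types at G14.5 that were sequenced with a high-fat-diet set (173 cells), Tph1 had 119.008 and 127.6 joint CPM, Tph2 17.6 and 16.53 and Chgb 2958 and 2727. Chac1 had 32.8 and 23.997 joint CPM in that set, and 49.9 and 46.01 CPM in Acss2 wild types at G18.5. No difference between these libraries and the G14.5 or G0 libraries of the Acss2 set was tested.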

How the data were processed

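The authors deposited, per the file headers, a table of read counts per gene and cell for the Acss2 libraries (21767 genes, 1003 cells in 12 libraries) and like tables for the time course and the high-fat-diet set. The submitters' processing notes name Trimmomatic 0.39, featureCounts 2.0.1 and the mouse build GRCm38 (mm10), but the aligner, the annotation, the use of strand and the handling of shared reads are not given there. The authors also deposited normalized values per cell, used as a score, which sum to 100000 without Ins1 and Ins2. Genome positions were taken from GENCODE M21 (21490 of 21767 IDs found) and promoters from RefSeq (GRCm38.p6). No 2 of 1600 cells in 19 libraries had identical counts.

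Columns were assigned to groups by their labels, and counts were summed per replicate. Genes were filtered with filterByExpr, scaled by TMM and tested with edgeR 4.0.16 (glmQLFit and glmQLFTest, R 4.3.3) over all 12 libraries, with no covariate, at a Benjamini-Hochberg adjusted p under 0.05. The change in wild types was compared with that in knockouts in the same fit, and with the time course in a joint fit of 9 libraries. Libraries with 2 per group cannot reach a p under 0.333 in a two-sided exact permutation test, so shares of cells were not tested. Cells were thinned to 100000 reads outside Ins1 and Ins2 for shares of cells with a read. Floors are 3 counts and intervals are 95% exact (Clopper-Pearson), and both cover counting error only, since reads are not independent molecules. Doublets were not called. Alternatives used DESeq2 1.42.0 and limma 3.58.1 (log2 of the mean normalized score with a pseudocount of 0.1). On simulated counts for the 14057 genes, 35% of 100 genes changed by 1 on the log2 scale and 64% of 100 changed by 2 were recovered.

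The members and the 33 gene lists were chosen with earlier results of these data known; 32 have members in the table. Of the list of nuclear retained RNAs no member was found. Named genes are 12 set genes, the 15 called genes at each end of the fold change with at least 10 CPM and no overlap, up to 4 called members per list (2 of lowest p where none was called), and the genes called in the comparisons of changes. Ddc, Slc18a1, Slc6a4, Htr3a, Calr, Scg2, Chga, Srebf2, Men1, Foxm1, Nupr1, C1qb, C1qc, Cd74 and Prss2 fall outside this rule and were chosen after their values were seen. Some genes that the rule names are not reported here. Replicate numbers did not pair the samples.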

Additional observations from a re-analysis of the deposited data

Results flagged for a closer look

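Changes at G14.5 that passed a test of the difference between genotypes were those of Sftpd (5.45 on the log2 scale), Chac1 (2.01) and P2ry1 (1.52), each wild types minus knockouts. Between the Acss2 wild types and the time course, the changes of Sftpd (5.93), Crispld2 (8.62) and Tph1 (4.46) passed. The values for Sftpd, Crispld2 and Tph1 compare G0 libraries that hold few reads: 2 Sftpd reads, 0 Crispld2 reads and 8 Tph1 reads in the wild-type G0 libraries together. Over the alternatives the Sftpd difference from the knockouts ranged from 1.67 to 8.72, and that from the time course from 2.54 to 9.25. For Chac1 the difference from the knockouts ranged from 1.79 to 2.20, and for P2ry1 from 1.41 to 1.62. In the time-course comparison the range was 1.41 to 9.24 for Crispld2 and 2.19 to 9.67 for Tph1.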

How the results depend on the processing

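The number of libraries limits these results: with 2 a group, the genes recovered in simulated counts were a minority at a 2-fold change, so a gene without a call is not shown to be steady. For G14.5 against G0, 813 genes passed with DESeq2 (500 higher, 313 lower, 407 of them among the 410), 868 without a filter on low counts and 259 in a fit of the 4 wild-type libraries alone (244 of them among the 410), and the cause of these differences was not tested. Leaving out 1 library gave 177 to 388. The other counts were 414 with RLE size factors, 415 without Ins1 and Ins2, 401 without cells over 5% in other hormones and 348 with limma; 2 alternatives chosen after seeing the data gave 545 (without the G18.5 libraries) and 377 (cells thinned to 100000 reads). A replicate block gave 421 genes, 387 of them among the 410. The correlation of same-numbered libraries was 0.035 between G14.5 and G0 wild types and -0.12 to 0.129 over all pairs of groups, so the numbers are not read as pairs. The count of genes that differed from the knockouts was 26 with DESeq2 and 93 without a filter, and 1 to 28 with 1 library left out; that from the time course was 34 with DESeq2 and 67 without a filter, and 1 to 23 with 1 library left out. With the replicate block both counts were 3. With limma the median of all genes in the time-course comparison lay at 0.12. Of 1330 values for 97 named genes over these alternatives, none reversed a called direction, 75 fell short of the threshold where the value reported passed it and 45 passed it where the value reported had not. Of the 62 called named genes, 37 were called in every alternative run.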

Other observations

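Esr1, an estrogen receptor gene, had 162 and 2.30 CPM in the G14.5 libraries, against 34.8 and 1.94 CPM in the G0 libraries. Wild-type replicate 1 was the higher library at both times. Without thinning, Esr1 reads were in 64 of 65 and 14 of 46 wild-type G14.5 cells, against 82 of 90 and 25 of 100 wild-type G0 cells. Both knockout replicates held them in most cells, 57 of 61 and 56 of 60 at G14.5, against 64 of 78 and 78 of 85 at G0. The cause of the gap between the wild-type replicates was not tested.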
